A study of Mus musculus with 48 samples.

Results

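The genes described here were the 4 mouse Fc gamma receptor genes (*Fcgr1*, *Fcgr2b*, *Fcgr3* and *Fcgr4*), the shared signalling chain *Fcer1g*, the kinase *Syk* and the neonatal Fc receptor gene *Fcgrt*. They were chosen by name and made up 7 of the 54735 genes listed in the count tables. RNA was sequenced from 24 freshly sorted spleen cell libraries, in 6 groups of 4 libraries, from male Balb/c mice aged 10 weeks. Wild-type (WT) mice and mice labelled Il1rl1-/-, lacking the receptor for interleukin-33, each gave monocytes (Ly6Glo CD11bhi F4/80-), red pulp macrophage precursors (pre-RPM; Ly6Glo CD11bhi F4/80lo) and red pulp macrophages (RPM; Ly6Glo CD11blo/- F4/80hi). The labels name no treatment, and no promoter or Cre that would limit the deletion to a cell type. They number the mice within each genotype, and a number was read as the same mouse across the cell types. On this reading each mouse gave 3 libraries, so the cell type groups of a genotype are not separate mice. The main tests treated these libraries as independent.

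Fc gamma receptors bind the constant part of IgG and let macrophages and monocytes take up antibody-coated cells, including opsonised red blood cells. FCGR1, FCGR3 and FCGR4 are activating receptors that sit in the membrane with the common gamma chain encoded by *Fcer1g*, whose ITAM motif is phosphorylated by Src kinases and then bound by SYK. FCGR2B carries an inhibitory ITIM motif instead and recruits the lipid phosphatase SHIP1, while FCGRT works inside the cell, where it returns IgG and albumin from endosomes to the surface.

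Total counts per library ran from 3562367 to 6559454 with a median of 4728764.5. The summed level of 10 red pulp macrophage marker genes was 6570 to 8359 CPM (counts scaled to a common library size) in WT RPM against 118.6 to 310.1 in WT pre-RPM and 46.5 to 85.33 in WT monocytes, and the libraries labelled Il1rl1-/- kept the same order. Monocyte libraries 1 and 2 of both genotypes stood apart, with 8 natural killer (NK) cell markers summing to 1625 and 1886 CPM in WT against 580.1 and 1063 in WT libraries 3 and 4. The same sums were 1572 and 1182 against 517.9 and 817.6 in the libraries labelled Il1rl1-/-. Libraries 1 and 2 of both genotypes were also higher in B cell, T cell and basophil or mast cell marker sums, and lower in classical monocyte sums. In WT the B cell sums were 90.1 and 114.3 against 32.8 and 44.49 CPM. Those of basophils or mast cells were 121.6 and 128.7 against 41.52 and 63.06, and of classical monocytes 608.2 and 435.1 against 995.7 and 788.5. *Il1rl1* itself went against the genotype label in monocytes and pre-RPM: its counts were 51, 73, 71 and 64 in the monocyte libraries labelled Il1rl1-/- and 28, 19, 12 and 13 in WT monocytes. In pre-RPM they were 50, 76, 42 and 65 against 18, 15, 13 and 24. In RPM they were 1, 7, 3 and 6 against 5, 9, 7 and 13, overlapping, with means of 0.8261 against 1.941 CPM. The part of the gene that the deletion removes was not examined, so the genotype comparisons below are between libraries as labelled.

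The sequences of *Fcgr2b* and *Fcgr3* are shown first because their levels moved apart in RPM although the genes are close copies over the antibody-binding domains. All positions are on GRCm38. *Fcgr2b* lies at chr1:170958617-170976547 on the minus strand, *Fcgr4* at chr1:171018920-171029761 on the plus strand, *Fcgr3* at chr1:171051174-171064935 on the minus strand and *Fcer1g* at chr1:171229572-171234365 on the minus strand. *Fcgr1* lies at chr3:96282909-96293969 (minus), *Fcgrt* at chr7:45092990-45103851 (minus) and *Syk* at chr13:52583173-52648792 (plus). The exon of the membrane-distal immunoglobulin domain spans chr1:170967980-170968234 in *Fcgr2b* and chr1:171057691-171057945 in *Fcgr3*, and that of the membrane-proximal domain spans chr1:170966446-170966700 and chr1:171053939-171054193. Both are coding exons printed 5′ to 3′ on the minus strand, and capitals mark the bases at which the pair differs.
Fcgr2b distal exon: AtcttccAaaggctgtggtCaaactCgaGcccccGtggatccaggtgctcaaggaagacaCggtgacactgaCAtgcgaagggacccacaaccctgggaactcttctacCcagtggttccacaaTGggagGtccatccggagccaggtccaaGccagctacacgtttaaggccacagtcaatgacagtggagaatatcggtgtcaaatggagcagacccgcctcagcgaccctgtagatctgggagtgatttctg
Fcgr3 distal exon: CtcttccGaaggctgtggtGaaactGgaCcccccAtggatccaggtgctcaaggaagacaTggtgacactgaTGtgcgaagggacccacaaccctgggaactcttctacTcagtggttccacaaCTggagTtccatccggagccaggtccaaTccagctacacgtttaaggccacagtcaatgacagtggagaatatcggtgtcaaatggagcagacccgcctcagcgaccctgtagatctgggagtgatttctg
Fcgr2b proximal exon: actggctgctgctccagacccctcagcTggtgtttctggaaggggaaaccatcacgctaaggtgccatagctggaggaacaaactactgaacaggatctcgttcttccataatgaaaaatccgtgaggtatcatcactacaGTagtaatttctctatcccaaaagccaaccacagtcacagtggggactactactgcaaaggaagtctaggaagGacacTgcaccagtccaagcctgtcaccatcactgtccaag
Fcgr3 proximal exon: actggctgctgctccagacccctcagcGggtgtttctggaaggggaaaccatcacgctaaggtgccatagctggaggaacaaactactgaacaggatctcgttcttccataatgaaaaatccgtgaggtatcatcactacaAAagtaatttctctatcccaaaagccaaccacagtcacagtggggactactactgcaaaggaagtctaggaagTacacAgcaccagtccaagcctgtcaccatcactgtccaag
The distal exons differed at 14 of 255 bases (94.5% identity) with a longest identical run of 102 bases, and the proximal exons at 5 of 255 (98.0%) with a run of 113 bases. *Fcgr3* and *Fcgr4* were 60.8% and 56.5% identical over the same exons. Reads were 50 bases long, and 272 of 1421 windows of 50 bases in *Fcgr3* exons (19.1%) and 437 of 5300 in *Fcgr2b* exons (8.25%) occur more than once in the genome, 139 of them being shared between both genes. The share was 1.08% for *Fcgrt* and 0 for *Fcgr1*, *Fcgr4*, *Fcer1g* and *Syk*. The counting command had no option for reads placed at several sites, so levels of *Fcgr2b* and *Fcgr3* were read mainly from the remaining parts of their exons and are less certain than the others.

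Promoter windows are printed for the 4 Fc gamma receptor genes. Mean levels were higher in RPM than in monocytes for *Fcgr1*, *Fcgr3* and *Fcgr4*, and lower for *Fcgr2b*. They were also higher for *Fcgrt*, *Fcer1g* and *Syk*, whose windows are not printed. Each window runs from 250 bases before to 50 bases after the transcription start given by RefSeq for GRCm38.p6. All 7 genes had at least 1 window, with a second for *Fcgr3* and for *Syk* from another start site. Capitals mark a match to GAGGAAG, a PU.1-type motif, which lies on the reverse strand in all 3 windows that hold it and is therefore read as its reverse complement.
Fcgr1 promoter: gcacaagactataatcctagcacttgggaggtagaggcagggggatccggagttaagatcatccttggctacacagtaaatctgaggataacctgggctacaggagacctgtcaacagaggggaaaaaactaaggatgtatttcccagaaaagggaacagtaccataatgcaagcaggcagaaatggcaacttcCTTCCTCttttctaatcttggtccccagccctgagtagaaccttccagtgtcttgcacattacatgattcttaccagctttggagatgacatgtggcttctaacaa
Fcgr3 promoter: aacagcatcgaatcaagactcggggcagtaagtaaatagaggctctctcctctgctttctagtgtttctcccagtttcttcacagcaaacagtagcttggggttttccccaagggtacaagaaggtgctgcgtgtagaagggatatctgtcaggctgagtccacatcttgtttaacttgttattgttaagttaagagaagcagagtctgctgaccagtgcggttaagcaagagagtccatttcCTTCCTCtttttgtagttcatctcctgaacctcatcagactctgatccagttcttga
Fcgr4 promoter: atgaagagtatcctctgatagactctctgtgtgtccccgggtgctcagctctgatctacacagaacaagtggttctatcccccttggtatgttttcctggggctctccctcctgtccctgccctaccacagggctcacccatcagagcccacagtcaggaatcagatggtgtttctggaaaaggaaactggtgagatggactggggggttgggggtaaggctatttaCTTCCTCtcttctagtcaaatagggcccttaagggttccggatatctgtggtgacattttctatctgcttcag
Fcgr2b promoter: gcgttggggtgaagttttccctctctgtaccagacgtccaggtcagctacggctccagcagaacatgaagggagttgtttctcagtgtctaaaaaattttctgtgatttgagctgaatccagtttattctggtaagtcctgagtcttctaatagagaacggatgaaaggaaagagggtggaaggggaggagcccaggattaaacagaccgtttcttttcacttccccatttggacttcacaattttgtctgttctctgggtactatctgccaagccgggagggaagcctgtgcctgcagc
The windows lie at chr3:96293920-96294219 (minus) for *Fcgr1*, chr1:171059354-171059653 (minus) for *Fcgr3*, chr1:171018676-171018975 (plus) for *Fcgr4* and chr1:170976022-170976321 (minus) for *Fcgr2b*. The match starts at base -56 from the start site in *Fcgr1*, -7 in *Fcgr3* and -23 in *Fcgr4*. The other *Fcgr3* window, at chr1:171059345-171059644, holds the same match at base -16 and is not printed. No match was found in the windows of *Fcgr2b*, nor in those of *Fcer1g*, *Fcgrt* and *Syk*, whose means were also higher in RPM. Both strands were searched, and the motif was present in 4477 of 32851 windows of the same length (13.6%). The interferon-gamma-type element TTCNNNGAA was found in *Fcgr1* alone among the 7 genes (8.3% of all windows) and a spaced pair of interferon-stimulated response element cores in *Fcgr4* alone (3.44%), while TGACTCA and AGATAA were found in none (5.2% and 11.2%).

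All genes but *Fcgr2b* had their lowest means in monocytes. From pre-RPM to RPM the fitted change was 3.87- and 4.38-fold for *Fcgrt* in WT and under the Il1rl1-/- label, 1.69- and 1.99-fold for *Fcgr1*, and smaller for *Fcgr3*, *Fcgr4*, *Fcer1g* and *Syk*. *Fcgr2b* was highest in pre-RPM and lowest in RPM. Levels below are CPM with library sizes adjusted by edgeR's TMM factors, with SD over 4 libraries.

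**Figure D1:**
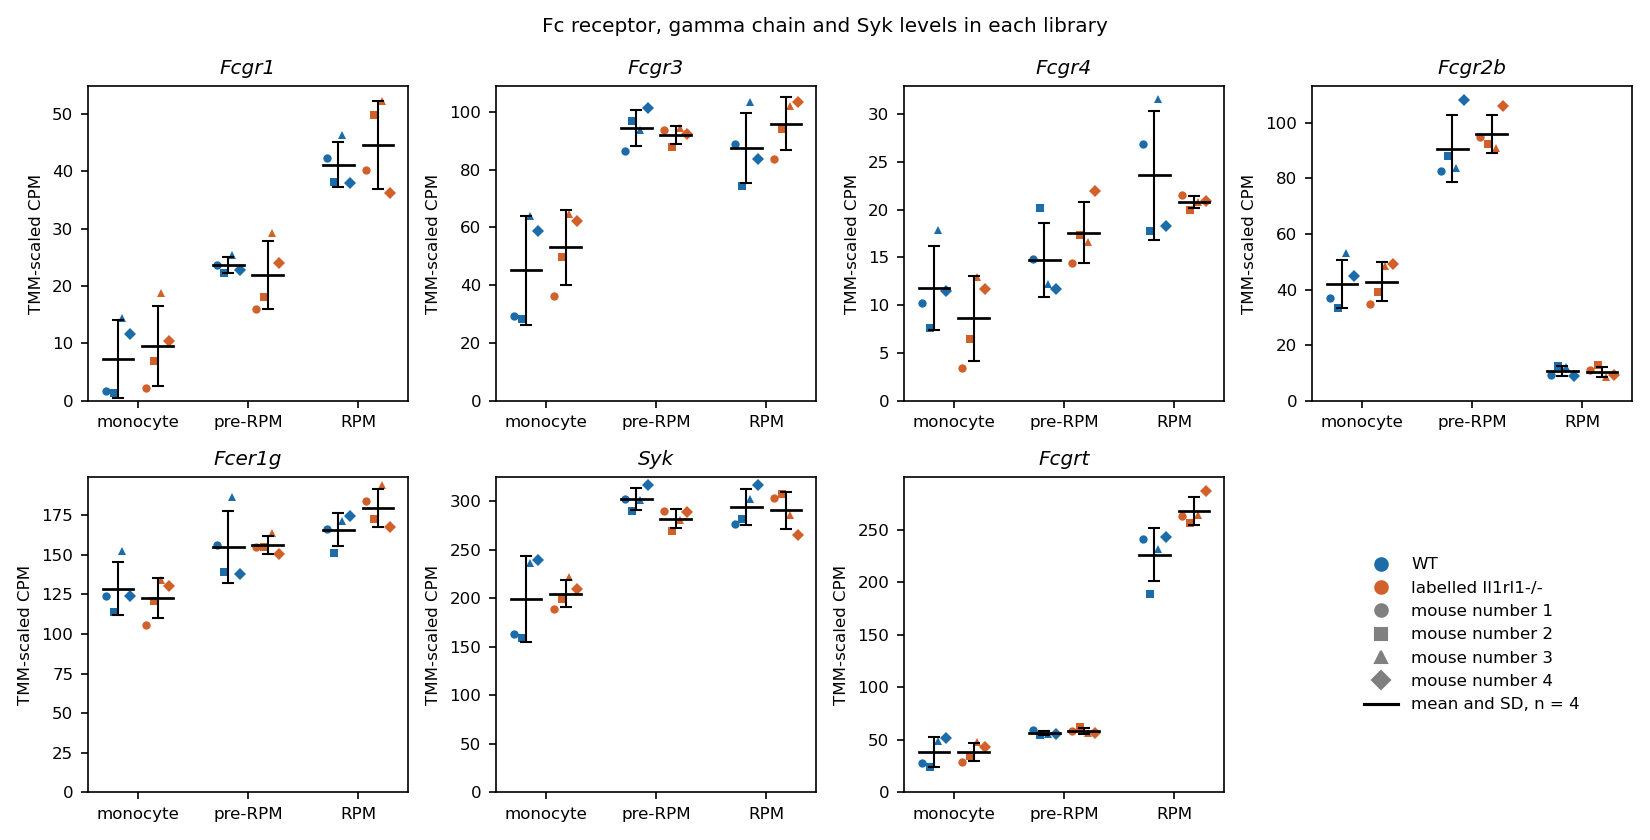
TMM-scaled CPM of the 7 genes (y axis, from 0) in each of the 24 libraries (points) by group (x axis), with bars at the group means. *Fcgr2b* lies at 8.77 to 12.91 CPM in all 8 RPM libraries against 82.78 to 108.2 in all 8 pre-RPM libraries, and *Fcgrt* at 189.0 to 286.7 against 54.84 to 62.75.

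Compared per kilobase of exon, *Fcer1g* had the highest mean of the 7 genes in every group, from 140.3 CPM per kb in monocytes labelled Il1rl1-/- to 205.2 in RPM labelled Il1rl1-/-. *Fcgr3* was the most abundant Fc gamma receptor per kb in all 6 groups, at 26.03 CPM per kb in WT monocytes, 54.47 in WT pre-RPM and 50.44 in WT RPM. Without division by exon length, *Fcgr2b* was above it in pre-RPM labelled Il1rl1-/- (96.04 against 92.09 CPM) and close to it in WT pre-RPM (90.68 against 94.56). *Fcgr2b* went from 15.66 CPM per kb in WT pre-RPM, above *Fcgr4* (11.74) and *Fcgr1* (9.109), to 1.847 in WT RPM, the lowest of the 7. *Fcgrt* came second in RPM, at 107.6 CPM per kb in WT RPM and 127.4 in RPM labelled Il1rl1-/-.

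*Fcgr1* encodes the high-affinity IgG receptor. Its CPM was 1.683, 1.398, 14.45 and 11.68 in WT monocytes, 23.72, 22.3, 25.48 and 22.84 in WT pre-RPM and 42.37, 38.08, 46.21 and 37.87 in WT RPM. The 3 WT groups did not overlap, and monocyte libraries 1 and 2 were far below libraries 3 and 4. The libraries labelled Il1rl1-/- gave 2.217, 6.937, 18.73 and 10.49 CPM in monocytes, 16.07, 18.15, 29.15 and 24.04 in pre-RPM and 40.13, 49.86, 52.18 and 36.21 in RPM. Here the monocyte and pre-RPM ranges overlapped and the RPM range lay above both.

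*Fcgr3* encodes the low-affinity activating receptor carried by most myeloid cells and by NK cells. Its CPM was 29.52, 28.37, 63.99 and 58.87 in WT monocytes, 86.5, 96.82, 93.58 and 101.3 in WT pre-RPM and 88.76, 74.53, 103.4 and 83.59 in WT RPM. All monocyte libraries lay below all others, while pre-RPM and RPM overlapped. The groups labelled Il1rl1-/- had means of 53.18 ± 13.03, 92.09 ± 3.095 and 95.87 ± 9.145 CPM (SD, n = 4), again with the monocyte range below the overlapping ranges of pre-RPM and RPM.

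*Fcgr4*, an activating receptor for IgG2 subclasses in mice, was the least separated of the receptors. Its CPM was 10.25, 7.592, 17.89 and 11.53 in WT monocytes, 14.88, 20.2, 12.25 and 11.66 in WT pre-RPM and 26.9, 17.72, 31.52 and 18.24 in WT RPM. Each group overlapped the next in the order of means. In the groups labelled Il1rl1-/- the means were 8.651 ± 4.444, 17.59 ± 3.183 and 20.79 ± 0.649 CPM (SD, n = 4), and the monocyte range, 3.448 to 12.92, lay below the pre-RPM range.

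*Fcgr2b* encodes the inhibitory receptor. Its CPM was 36.87, 33.56, 52.98 and 44.94 in WT monocytes, 82.78, 88.16, 83.54 and 108.2 in WT pre-RPM and 9.321, 12.42, 12.02 and 9.006 in WT RPM. The libraries labelled Il1rl1-/- gave 34.73, 39.1, 48.43 and 49.37 CPM in monocytes, 95.02, 92.26, 91.02 and 105.9 in pre-RPM and 10.99, 12.91, 8.77 and 9.372 in RPM. In both genotypes the 3 cell types were fully separated, with pre-RPM on top, monocytes in the middle and RPM at the bottom. Per kilobase of exon, *Fcgr2b* was above 95.3% of the 26041 genes with counts in WT pre-RPM and above 69.4% of the 28458 genes with counts in WT RPM.

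*Fcer1g* encodes the gamma chain needed at the surface by the activating receptors. Its means were 128.6 ± 16.62 CPM in WT monocytes, 154.9 ± 22.6 in WT pre-RPM and 165.7 ± 10.3 in WT RPM (SD, n = 4). Neighbouring groups in this order overlapped. The groups labelled Il1rl1-/- had 122.6 ± 12.81, 156.0 ± 5.712 and 179.4 ± 12.04 CPM, and these 3 ranges did not overlap.

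*Syk* encodes the tyrosine kinase that binds the phosphorylated gamma chain. Its CPM was 162.9, 159.4, 236.3 and 239.7 in WT monocytes, with means of 302.4 ± 10.85 in WT pre-RPM and 294.2 ± 18.48 in WT RPM (SD, n = 4). The monocyte libraries were all lower than the others, and pre-RPM and RPM overlapped. The groups labelled Il1rl1-/- had 204.9 ± 14.27, 282.2 ± 9.648 and 290.5 ± 19.05 CPM with the same arrangement.

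*Fcgrt* encodes the heavy chain of the neonatal Fc receptor, which pairs with beta-2 microglobulin. Its CPM was 28.15, 24.57, 49.31 and 51.53 in WT monocytes, 59.76, 54.84, 55.85 and 55.91 in WT pre-RPM and 240.9, 189.0, 231.3 and 243.6 in WT RPM. RPM were far above the other cell types, and WT monocytes lay below WT pre-RPM in every library. The groups labelled Il1rl1-/- had 38.52 ± 8.651, 58.65 ± 2.908 and 267.7 ± 13.13 CPM (SD, n = 4), also without overlap.

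*Fcgr2b* was the 1 gene of the 7 called between monocytes and pre-RPM, higher in pre-RPM whichever the genotype label. Cell types were compared with edgeR's quasi-likelihood test, with calls at a Benjamini-Hochberg adjusted p below 0.01 and a change above 2-fold (1 on the log2 scale). In WT, *Fcgr2b* was 2.16-fold higher in pre-RPM (log2 fold change 1.11, SE 0.16, adjusted p = 0.001376). With total counts in place of TMM it was not called (0.76, adjusted p = 0.01). Among all 11091 genes tested 0.316% were called higher and 3.57% were called in either direction. In the libraries labelled Il1rl1-/- it was 2.24-fold higher (log2 fold change 1.17, SE 0.12, adjusted p = 0.0001047), with 0.974% of all genes called higher and 4.85% in either direction.

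The other 6 genes were not called between monocytes and pre-RPM, although the log2 fold change was positive for each in both genotypes. In WT, *Fcgr1* had 1.71 (95% confidence interval 0.56 to 2.86, adjusted p = 0.0494), *Fcgr3* 1.07 (adjusted p = 0.01765) and *Syk* 0.60 (adjusted p = 0.02898). The values of *Fcgrt*, *Fcgr4* and *Fcer1g* were 0.56, 0.33 and 0.27. With the mouse number, which the labels give, as a replicate block, *Fcgr3* was also called in WT (log2 fold change 1.15, adjusted p = 0.00672). With this block *Fcgr1* (1.28, adjusted p = 0.00304) and *Fcgr4* (1.08, adjusted p = 0.00536) were also called in the libraries labelled Il1rl1-/-.

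Monocyte libraries 1 and 2, which had the highest NK cell marker sums of their genotype, held the lowest *Fcgr1* and *Fcgr3* in both genotypes. NK marker sums were 580.1 to 1886 CPM in WT monocytes, 83.5 to 155.9 in WT pre-RPM and 21.9 to 52.33 in WT RPM. In the groups labelled Il1rl1-/- they were 517.9 to 1572, 34.04 to 65.97 and 14.03 to 28.92. In bulk samples fewer cells of a type and less RNA per cell cannot be told apart, and the part of these NK markers in the results was not tested. Without monocyte libraries 1 and 2, the *Fcgr2b* change from monocytes to pre-RPM was 0.90 in WT (adjusted p = 0.00213) and 0.97 in the libraries labelled Il1rl1-/- (adjusted p = 3.33e-05), both just under the 2-fold limit, so that none of the 7 genes was called. The changes of the other members were smaller too. *Fcgr1*, *Fcgr3*, *Fcgr4* and *Fcgrt* had 0.866, 0.625, 0.0248 and 0.166 in WT, against 1.71, 1.07, 0.33 and 0.56 with all libraries. Under the Il1rl1-/- label they had 0.559, 0.53, 0.517 and 0.362, against 1.16, 0.79, 1.02 and 0.61.

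**Figure D2:**
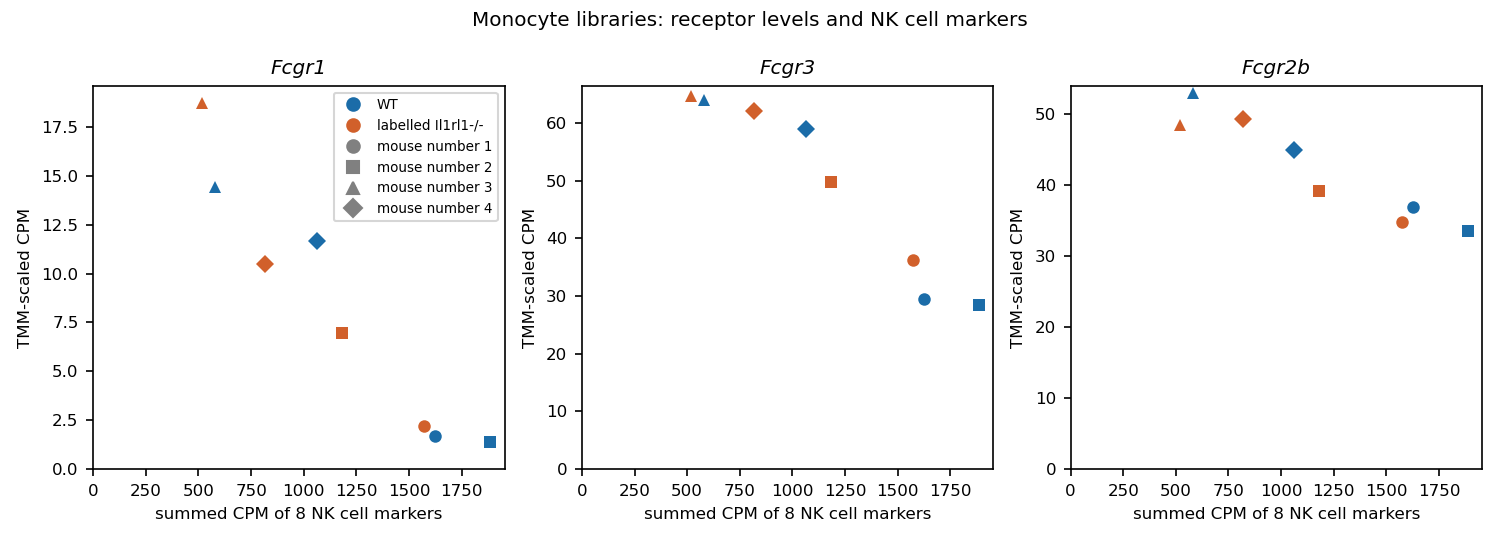
CPM of *Fcgr1*, *Fcgr3* and *Fcgr2b* (y axes) against the summed CPM of 8 NK cell marker genes (x axis) in the 8 monocyte libraries, numbered by mouse and coloured by genotype label. The libraries with NK sums of 1182 to 1886 CPM hold *Fcgr1* at 1.398 to 6.937 CPM, and those at 517.9 to 1063 hold it at 10.49 to 18.73.

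From pre-RPM to RPM, *Fcgr2b* fell and *Fcgrt* rose in both genotypes, while the 3 activating receptors, the gamma chain and *Syk* were not called by this test. In WT RPM *Fcgr2b* was at 0.114 of its pre-RPM level (log2 fold change -3.13, SE 0.15, adjusted p = 5.867e-10) and *Fcgrt* at 3.87 times its level (log2 fold change 1.95, SE 0.12, adjusted p = 7.966e-09). In this comparison 24.7% of all genes were called, 14.0% higher and 10.7% lower. The libraries labelled Il1rl1-/- gave -3.23 (SE 0.12, adjusted p = 6.173e-12) for *Fcgr2b* and 2.13 (SE 0.09, adjusted p = 3.168e-11) for *Fcgrt*, with 26.0% of all genes called. No monocyte library enters this comparison.

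*Fcgr1* was 1.69-fold higher in WT RPM than in WT pre-RPM, below the 2-fold limit (log2 fold change 0.75, SE 0.11, adjusted p = 5.984e-05), and had a log2 fold change of 0.99 (SE 0.17, adjusted p = 0.0001237) in the libraries labelled Il1rl1-/-, at the edge of the limit. There it was called with total counts (1.08), with at least 10 counts in every library (1.03), with every gene of at least 1 count (1.0), and when any of 4 single libraries was omitted (pre-RPM replicate 3 or 4, or RPM replicate 1 or 4), and its range over all single omissions was 0.87 to 1.13. *Fcgr4* had 0.63 in WT (adjusted p = 0.02919) and 0.17 in the libraries labelled Il1rl1-/- (adjusted p = 0.2955). *Fcgr3* had -0.16 in WT, with a 95% confidence interval from -0.41 to 0.10, and 0.00365 (interval -0.20 to 0.21) in the libraries labelled Il1rl1-/-. Both intervals lay well within a 2-fold change in either direction. Scaling by total counts in place of TMM turned the sign of *Fcgr3* and *Syk* in WT, to 0.05 and 0.13.

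Between monocytes and RPM, *Fcgr1* and *Fcgrt* rose and *Fcgr2b* fell in both genotypes. The WT log2 fold changes were 2.49 for *Fcgr1* (SE 0.53, adjusted p = 0.002705), 2.54 for *Fcgrt* (SE 0.24, adjusted p = 1.001e-05) and -1.99 for *Fcgr2b* (SE 0.18, adjusted p = 7.382e-06), where 23.9% of all genes were called. In the libraries labelled Il1rl1-/- the values were 2.20, 2.80 and -2.01 (adjusted p = 0.0004069, 3.163e-08 and 8.789e-07) and *Fcgr4* also rose (1.25, SE 0.29, adjusted p = 0.003056), with 25.9% of all genes called. Without monocyte libraries 1 and 2 the calls of *Fcgr1* (1.64 in WT and 1.57 under the Il1rl1-/- label), *Fcgrt* (2.14 and 2.52) and *Fcgr2b* (-2.21 and -2.25) remained, and *Fcgr4* dropped to 0.71 (adjusted p = 0.00255) and lost its call. *Fcgr4* also lost it without monocyte replicate 1 alone (0.999) and without monocyte replicate 2 alone (1.09, adjusted p = 0.0156). In WT *Fcgr4* had 0.98 (adjusted p = 0.01158), just short of both limits. It was called there with all 24 libraries in one fit (1.0, adjusted p = 0.00303). The same held without WT monocyte replicate 3 (1.24, adjusted p = 0.00171) and without WT RPM replicate 2 (1.11, adjusted p = 0.00948). With the replicate block *Fcgr3* was called in WT as well (1.01, adjusted p = 0.00293). The 3 cell type comparisons of a genotype share libraries and are not independent of each other.

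**Figure D3:**
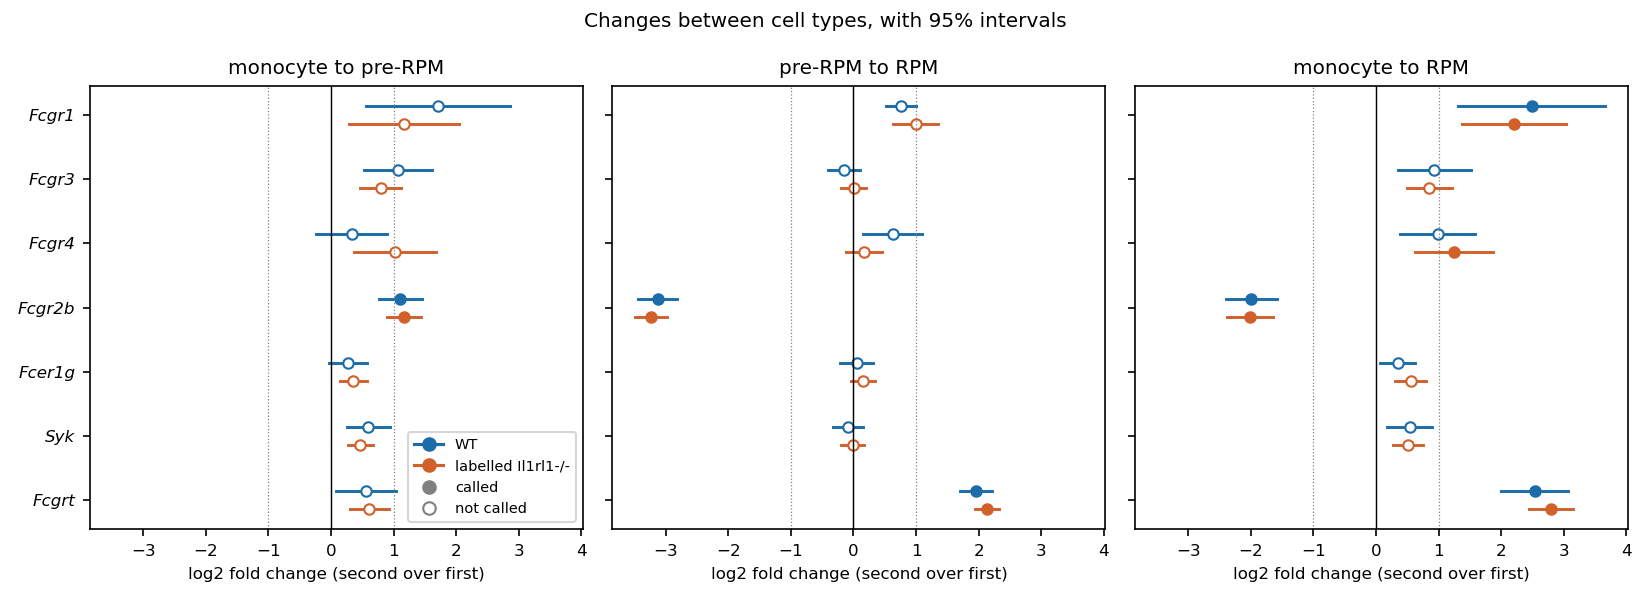
Log2 fold changes with 95% confidence intervals (x axis) of the 7 genes (y axis) for the 3 cell type comparisons, by genotype label. Filled points passed the threshold, which *Fcgr2b* did in all 6 comparisons, at 1.11 and 1.17 from monocytes to pre-RPM and -3.13 and -3.23 from pre-RPM to RPM.

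B cells also carry *Fcgr2b*, as their only Fc gamma receptor. Summed CPM of 8 B cell markers was 32.8 to 114.3 in WT monocytes, 57.46 to 78.51 in WT pre-RPM and 37.66 to 128.3 in WT RPM. In the groups labelled Il1rl1-/- it was 30.85 to 78.56, 27.66 to 56.82 and 42.75 to 70.85. These ranges overlapped between the cell types of each genotype, and the part of B cells in the *Fcgr2b* levels was not tested. Neutrophils carry *Fcgr3*, *Fcgr4* and *Fcer1g*, and 9 neutrophil markers summed to 757.9 to 2463 CPM in WT monocytes, 181.8 to 260.9 in WT pre-RPM and 11.08 to 19.96 in WT RPM. In the groups labelled Il1rl1-/- the sums were 1015 to 2050, 182.0 to 417.3 and 1.754 to 6.278. The 6 classical monocyte markers summed to 435.1 to 995.7, 891.2 to 1103 and 14.96 to 52.33 CPM in the 3 WT groups. In those labelled Il1rl1-/- the sums were 593.8 to 1103, 956.3 to 1172 and 7.893 to 26.91. The 8 nonclassical monocyte markers summed to 1260 to 1864, 1115 to 1518 and 368.1 to 412.4 CPM in the WT groups. Under the Il1rl1-/- label they summed to 1284 to 1771, 1534 to 1763 and 364.1 to 430.0. For both lists monocytes and pre-RPM overlapped, unlike *Fcgr2b*, and RPM lay below them. Summed erythroid markers reached 1223 to 23600 CPM in WT RPM and 836.8 to 15040 in RPM labelled Il1rl1-/-, and the part of these markers in the results was not tested.

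The balance of activating to inhibitory receptors was taken within each library as the sum of *Fcgr1*, *Fcgr3* and *Fcgr4* over *Fcgr2b*, in counts per kb of exon, which does not depend on how libraries are scaled to each other. It was 4.055, 3.955, 6.195 and 6.134 in WT monocytes, 4.955, 5.285, 5.094 and 4.091 in WT pre-RPM and 55.23, 33.44, 49.37 and 49.7 in WT RPM. All RPM libraries were above all others, and monocytes and pre-RPM overlapped. The libraries labelled Il1rl1-/- gave 4.078, 5.415, 6.541 and 5.767 in monocytes, 4.372, 4.474, 5.026 and 4.372 in pre-RPM and 42.59, 40.07, 63.11 and 55.75 in RPM.

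The ratio was 9.55-fold higher in WT RPM than in WT pre-RPM and 10.9-fold higher in RPM labelled Il1rl1-/- than in their pre-RPM. Each gave p = 0.0286 in a 2-sided exact permutation test, the smallest p that 4 libraries against 4 allow. Benjamini-Hochberg adjustment over the 9 pairs of groups compared made it 0.0643, so neither passed 0.05 after adjustment. For pairs at the smallest p the adjusted value depends on how many of the 9 reach it, so it does not measure the size of the difference. Monocytes and pre-RPM differed by -0.04 on the log2 scale in WT (exact p = 1.0) and -0.24 in the libraries labelled Il1rl1-/- (exact p = 0.171, adjusted 0.309). Between genotypes the log2 difference was 0.11 in monocytes, -0.09 in pre-RPM and 0.10 in RPM, with adjusted exact permutation p of 0.836, 0.643 and 0.836.

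Per kb of exon, the summed level of the 4 receptors differed between pre-RPM and RPM by less than the spread of the libraries, and the share of *Fcgr2b* in it was lower in RPM. This rests on division by exon length, 5790 bases for *Fcgr2b* against 2589 for *Fcgr1*, 1736 for *Fcgr3* and 1256 for *Fcgr4*. In undivided CPM, *Fcgr2b* went from 90.68 in WT pre-RPM to 10.69 in WT RPM and *Fcgr3* from 94.56 to 87.56. *Fcgr1* went from 23.58 to 41.13 and *Fcgr4* from 14.75 to 23.59. The sum was 91.0 ± 5.27 CPM per kb in WT pre-RPM and 87.0 ± 13.7 in WT RPM (SD, n = 4), and 92.1 ± 5.28 and 90.8 ± 5.97 in the groups labelled Il1rl1-/-, with overlapping ranges. In WT, *Fcgr2b* made up 17.0% ± 3.48 of it in monocytes, 17.2% ± 1.68 in pre-RPM and 2.16% ± 0.505 in RPM. *Fcgr3* held 56.7% ± 3.47, 59.9% ± 1.69 and 58.1% ± 2.06, *Fcgr1* 5.13% ± 3.68, 10.1% ± 1.08 and 18.4% ± 1.18, and *Fcgr4* 21.2% ± 3.59, 12.9% ± 3.14 and 21.3% ± 2.95. In RPM labelled Il1rl1-/- the share of *Fcgr2b* was 2.01% ± 0.418.

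**Figure D4:**
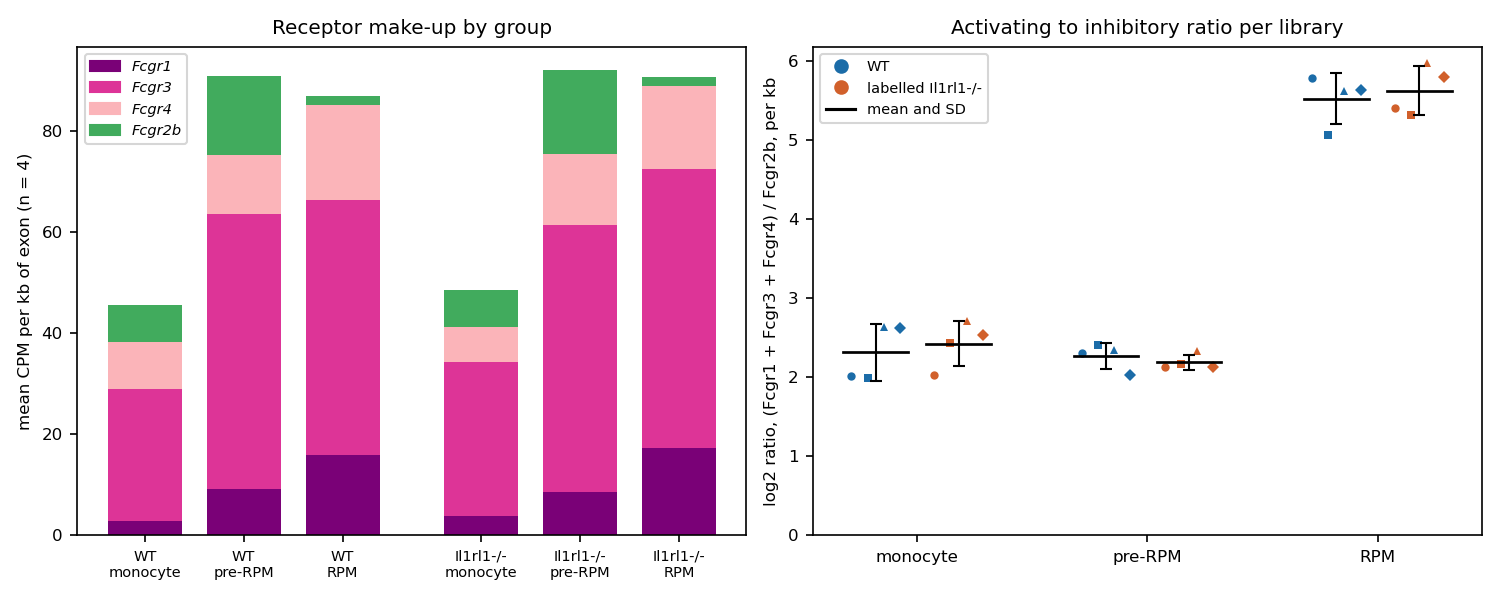
Mean CPM per kb of exon of the 4 Fc gamma receptor genes, stacked by group (left, y axis from 0), and the log2 ratio of activating to inhibitory receptors in each library with the group mean (right). The stacks of pre-RPM and RPM are of like height, 87.0 to 92.1 CPM per kb, while the RPM ratios lie at 33.44 to 63.11 before the log, above the range of 3.955 to 6.541 in monocytes and pre-RPM. The stack heights depend on the division by exon length.

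The amount of gamma chain per activating receptor was also computed per library, as *Fcer1g* over the sum of *Fcgr1*, *Fcgr3* and *Fcgr4* per kb. It was 5.505, 5.693, 3.079 and 2.97 in WT monocytes, 2.52, 1.977, 2.902 and 2.064 in WT pre-RPM and 2.137, 2.41, 1.911 and 2.58 in WT RPM. Monocyte libraries 1 and 2 were far above the rest, and libraries 3 and 4 lay just above the highest pre-RPM library. The geometric mean was 4.114 in WT monocytes, 2.337 in WT pre-RPM and 2.245 in WT RPM, and 3.548, 2.366 and 2.306 in the groups labelled Il1rl1-/-. Monocytes did not overlap pre-RPM in either genotype (adjusted exact permutation p = 0.0643, with 0.0286 the smallest p before adjustment). NK cells use the same gamma chain. Monocyte libraries 1 and 2 of each genotype had both the highest NK marker sums and the highest values among its monocytes. From pre-RPM to RPM the NK marker sums fell while the value hardly changed. The part of NK cells in this value was not tested.

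Genotype was then compared within each cell type. None of the 7 genes was called at an adjusted p below 0.05 in monocytes, pre-RPM or RPM by edgeR's quasi-likelihood test or by DESeq2, where edgeR called 0.0614%, 0.552% and 0.233% of all genes. At an unadjusted p below 0.05 the number was 0, 0 and 1 of 7, beside 3.59%, 8.80% and 7.27% of all genes. That gene was *Fcgrt* in RPM, at 263.4, 256.5, 264.2 and 286.7 CPM in the libraries labelled Il1rl1-/- against 240.9, 189.0, 231.3 and 243.6 in WT. The ranges did not overlap and the log2 fold change was 0.24 (SE 0.11, 95% confidence interval 0.01 to 0.47), but the adjusted p was 0.6646.

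The precision differed between cell types. In RPM the log2 fold changes of genotype ran from -0.18 for *Fcgr4* (interval -0.56 to 0.19) to that of *Fcgrt*, and in pre-RPM from -0.13 for *Fcgr1* (-0.47 to 0.21) to 0.27 for *Fcgr4* (-0.12 to 0.65). In monocytes they ran from -0.43 for *Fcgr4* (-1.29 to 0.43) to 0.42 for *Fcgr1* (-1.25 to 2.08), so a 2-fold genotype difference of these genes lay within the intervals in monocytes and outside them in pre-RPM and RPM. For *Fcgr2b* the intervals were -0.37 to 0.42 in monocytes, -0.13 to 0.30 in pre-RPM and -0.41 to 0.37 in RPM.

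**Figure D5:**
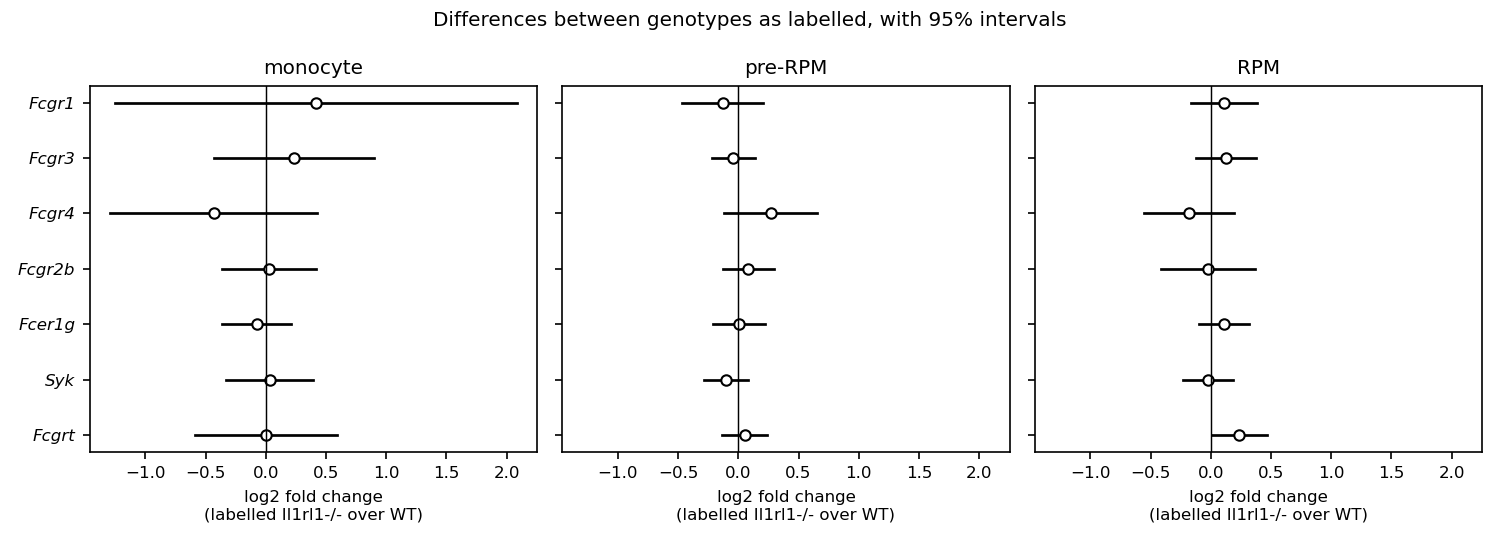
Log2 fold change of the libraries labelled Il1rl1-/- against WT with 95% confidence intervals (x axis) for the 7 genes (y axis) in each cell type. All intervals but that of *Fcgrt* in RPM, 0.01 to 0.47, include 0, and the widest is that of *Fcgr1* in monocytes, -1.25 to 2.08.

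The difference between genotypes in the cell type changes was tested directly as an interaction. No member was called, nor did any reach an unadjusted p below 0.05, in the 3 interactions. Among all genes 0%, 0.107% and 0.0318% were called from monocytes to pre-RPM, from pre-RPM to RPM and from monocytes to RPM, and 3.80%, 7.52% and 4.84% had an unadjusted p below 0.05. From pre-RPM to RPM the difference ran from -0.44 for *Fcgr4* (95% confidence interval -1.01 to 0.13) to 0.25 for *Fcgr1* (-0.20 to 0.71), and for *Fcgr2b* it was -0.09 (-0.49 to 0.31). From monocytes to pre-RPM it ran from -0.56 for *Fcgr1* to 0.69 for *Fcgr4*, and from monocytes to RPM from -0.31 for *Fcgr1* to 0.25 for *Fcgr4*.

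Downstream of the receptors, 5 lists of pathway genes were counted in WT. Of 24 Src-family and proximal signalling genes 23 were tested from monocytes to pre-RPM, where 3.57% of all genes were called in either direction, none of the list rose and *Fyn*, a Src-family kinase prominent in lymphocytes, and *Pik3r1*, a regulatory PI3-kinase subunit, fell (log2 fold change -1.71 and -1.12, adjusted p = 0.0005754 and 0.001559). The list's median was 0.32 against 0.00689 over all genes. *Fyn* was at 153.6, 161.0, 81.43 and 121.0 CPM in the monocyte libraries, highest in libraries 1 and 2. Without those libraries it was still called (-1.36, adjusted p = 0.000215), and the part of lymphocytes in its level was not tested. From pre-RPM to RPM 5 of the 24 rose and 5 fell, beside 14.0% and 10.7% of all genes, with a median of -0.04 against -0.00118 over all genes. *Fyn* and *Pik3r1*, which had fallen in the first step, were among the 5 that rose, in both genotypes.

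Among the 10 that changed from pre-RPM to RPM, the tyrosine kinase *Src* was at 0.9301, 0.5248, 1.225 and 1.189 CPM in pre-RPM and 18.22, 16.49, 14.42 and 15.7 in RPM (log2 fold change 3.97, adjusted p = 1.068e-08). *Blnk*, an adaptor substrate of SYK, rose from a mean of 4.664 to 38.94 CPM (3.00, adjusted p = 8.864e-09). The adaptor *Lat2* fell from 35.84 to 3.742 CPM (-3.22, adjusted p = 3.812e-06) and the kinase *Tec* from 43.67 to 5.597 (-2.97, adjusted p = 1.122e-07). Neither gene's groups overlapped, and *Blnk* is also prominent in B cells, whose marker ranges are given above.

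Of 14 inhibitory signalling genes, 2 fell and none rose from monocytes to pre-RPM in WT, and 1 rose and 2 fell from pre-RPM to RPM. Over all genes 3.57% and 24.7% were called in these steps, so that 3 of 14 in the second was near the share of all genes. The list's medians were 0.14 and -0.41. In the latter comparison the phosphatase *Ptpn22* rose (1.11, adjusted p = 1.483e-06), while the adaptor *Dok2* (-2.30, adjusted p = 8.394e-06) and the ubiquitin ligase *Cblb* (-1.19, adjusted p = 2.063e-05) fell, the last of them not being called with total counts (-0.97). From monocytes to pre-RPM the adaptor *Pag1* fell (-1.06, adjusted p = 0.0004571), as did *Dok2*.

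Of 24 phagocytosis effector genes, 1 rose and none fell from monocytes to pre-RPM, and 2 rose and 7 fell from pre-RPM to RPM, with medians of 0.22 and -0.69. Over all genes 3.57% were called in the first step, and 14.0% were higher and 10.7% lower in the second. *Marcksl1* was called higher in the first step (1.09, adjusted p = 0.004093), but not with total counts (0.72) nor when any of 5 single libraries was omitted (WT monocyte replicate 1 or 4, or WT pre-RPM replicate 1, 3 or 4), with adjusted p of 0.0117 to 0.0194. In the second, *Myo10*, a myosin found at the tips of cell protrusions, was at 1.395, 2.361, 12.0 and 2.617 CPM in pre-RPM and 379.0, 359.6, 359.3 and 388.2 in RPM (6.29, adjusted p = 1.843e-08). *Marcks*, a membrane-bound actin regulator, also rose (1.71, adjusted p = 2.041e-07). *Coro1a*, an actin regulator of leukocytes, fell from 548.5 to 48.61 CPM (-3.54, adjusted p = 6.183e-07) and *Ncf4*, a subunit of the phagocyte NADPH oxidase, from 78.19 to 10.09 (-2.99, adjusted p = 3.157e-10).

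Of 14 other ITAM chains and their partners 12 were tested in both steps, and 2 and 4 of them were called, beside 3.57% and 24.7% of all genes. From monocytes to pre-RPM the inhibitory receptor *Pirb* was called higher (1.22, adjusted p = 0.003057) and *Cd247*, the zeta chain of NK and T cells, fell (-2.79, adjusted p = 0.0005635). *Cd247* was at 35.64, 41.95, 14.68 and 24.72 CPM in WT monocytes, where 8 T cell markers summed to 35.95, 34.96, 10.78 and 16.78. Like the NK marker sums, both were highest in libraries 1 and 2. The part of NK and T cells in the *Cd247* change was not tested. Without those libraries *Cd247* was still called (-2.24, adjusted p = 0.000193). From pre-RPM to RPM the gamma chain partners *Clec4n* (4.50, adjusted p = 2.307e-10) and *Pira2* (2.17, adjusted p = 6.525e-07) rose. *Clec4e* and *Trem2* fell, with counts of 35, 34, 29 and 25 in pre-RPM against 0, 3, 0 and 1 in RPM for *Clec4e* and 19, 18, 13 and 16 against 0, 1, 2 and 0 for *Trem2*. The paired receptors of the *Pira* and *Pirb* cluster are near-identical copies, so their counts are uncertain. Without monocyte libraries 1 and 2, *Pik3r1* (-0.80), *Pag1* (-0.99) and *Pirb* (0.91) were no longer called between monocytes and pre-RPM. *Pirb* also lost its call with total counts (0.88) and when any of 4 single libraries was omitted (WT monocyte replicate 1, or WT pre-RPM replicate 1, 2 or 4), with adjusted p of 0.0115 to 0.0144. *Pik3r1* lost it without WT pre-RPM replicate 1 or 4 (adjusted p = 0.01 and 0.0107) and *Pag1* without WT pre-RPM replicate 4 (-0.99).

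Of 13 other Fc receptor genes 7 were tested from monocytes to pre-RPM and 6 from pre-RPM to RPM, and in these steps only *Fcrl1*, an Fc receptor-like gene known from B cells, changed, rising from 3.334 to 18.6 CPM in RPM (2.44, adjusted p = 1.573e-06). No gene of the 5 lists was called between genotypes in any cell type or in the interactions. In the libraries labelled Il1rl1-/- 26.0% of all genes were called from pre-RPM to RPM, where the proximal signalling list had 5 of 24 higher and 5 lower, the phagocytosis list 2 and 8 of 24, the inhibitory list 1 and 3 of 14, the ITAM list 2 and 3 of 10 and the other Fc receptors 1 and 0 of 5.

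Over the 24 libraries, which fall into 6 groups, the log2 levels of *Fcgr1*, *Fcgr3*, *Fcer1g* and *Syk* were positively correlated. Pearson's r was 0.932 for *Fcgr1* and *Fcgr3*, 0.944 for *Fcgr3* and *Syk* and 0.86 for *Fcgr1* and *Fcer1g*. After subtraction of group means these were 0.924, 0.816 and 0.618, with monocyte libraries 1 and 2 in the spread. *Fcgr4* had r = 0.825 with *Fcgr1*, 0.758 with *Fcgr3*, 0.798 with *Fcer1g* and 0.708 with *Syk*, and 0.735, 0.723, 0.505 and 0.441 within groups. *Fcgr2b* and *Fcgrt* had r = -0.786 over all libraries and 0.488 within groups.

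The genes whose log2 levels were most like those of each member over the 24 libraries, among 11658 genes, were ranked by Pearson's r. They were *Ern1*, *Ccl6* and *Camkk2* for *Fcgr2b* (r = 0.983, 0.982 and 0.982) and *Ftl1*, *Ctsb* and *Plxna1* for *Fcgrt* (0.994, 0.993 and 0.993). For *Fcgr1* they were *Gm15931*, *Lrrc25* and *Tnfrsf21* (0.981, 0.973 and 0.971), and for *Fcgr3* *Coro1b*, *Cd300a* and *Apoe* (0.963, 0.96 and 0.959). *Fcgr4* was followed less closely, by *Mctp1*, *Adgre4* and *Lpcat2* (0.912, 0.907 and 0.897), *Fcer1g* by *Arhgef11*, *Gnpda1* and *Unc93b1* (0.922, 0.913 and 0.913), and *Syk* by *Cd300a*, *Arap1* and *Fcgr3* (0.952, 0.947 and 0.944). These values include the differences between groups. After subtraction of group means, r was 0.637 to 0.738 for *Fcgr2b*, 0.7 to 0.743 for *Fcer1g* and 0.787 to 0.942 for the other members.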

How the data were processed

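Count tables of 24 RNA-seq libraries were used, and the 24 chromatin accessibility samples of the series were not analysed here. Per the file headers and the study's methods, the authors made a strand-specific total RNA library from each sorted sample, sequenced it as paired 50-base reads, trimmed with cutadapt, aligned with STAR 2.5.1 and deposited raw counts of fragments per gene name from featureCounts 1.6.2 over exons of the Ensembl GRCm38 annotation, release 95. The labels name the build as that of another species, and the headers were followed. The sources used here mention no molecular identifiers, so counts may include amplification copies.

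Counts were used as deposited. Genes were filtered with filterByExpr (minimum count 10), scaled by TMM (factors 0.798 to 1.38) and tested with edgeR 4.0.16 (quasi-likelihood F test, pairs of groups, R 4.3.3), with Benjamini-Hochberg adjustment over all genes tested. Cell types were called at adjusted p below 0.01 and absolute log2 fold change above 1, genotypes and interactions at adjusted p below 0.05. Ratios within libraries used 2-sided exact permutation tests (SciPy 1.17.1). DESeq2 1.42.0, total-count scaling, other filters, one fit of all libraries, a replicate block and leaving out each library were the alternatives, and leaving out monocyte libraries 1 and 2 was added after seeing the data. The edgeR test of WT pre-RPM against WT RPM was also run on counts simulated with the same dispersion for every gene. No other test was run on simulated counts.

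The members and lists were chosen with earlier results of these data known. Named genes were all 7 members and, from each pathway list, at most 2 called genes in each direction with the largest fold changes and no overlap of libraries, in WT. For likeness, the 3 genes with the highest Pearson r were named, among genes with a mean log2 CPM of at least 1. Mouse numbers in the labels were read as the same mouse across the cell types of a genotype, where deviations of same-numbered libraries correlated at -0.0394 to 0.306. Across genotypes a number is shared by different mice (0.0452 to 0.452). Exon windows of 50 bases were matched to the GRCm38 genome by exact search.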

Additional observations from a re-analysis of the deposited data

Results flagged for a closer look

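The log2 ratio of activating to inhibitory receptors in pre-RPM library 3 labelled Il1rl1-/- was 2.329, apart from the other 3 libraries of the group, which lay at 2.128 to 2.162. Of 48 groups of 4 values checked in this way 1 stood apart, and chance alone gives about 1 in 20. This library also had the highest *Fcgr1* of its group, at 29.15 CPM against 16.07 to 24.04.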

How the results depend on the processing

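The fall of *Fcgr2b* and the rise of *Fcgrt* from pre-RPM to RPM kept direction and call in both genotypes under every alternative run. From monocytes to pre-RPM the number of the 7 genes called was 1 in WT, against 2 with DESeq2, 2 with the replicate block, 3 with every gene of at least 1 count, 3 with all 24 libraries in one fit, and 0 with total counts or without monocyte libraries 1 and 2. Leaving out 1 library gave 1 to 3, the highest without WT monocyte replicate 3. In the libraries labelled Il1rl1-/- it was 1, against 3 with every gene of at least 1 count, 3 with the replicate block, 0 without monocyte libraries 1 and 2, and 1 to 2 when 1 library was left out, the highest without monocyte replicate 3. From WT monocytes to RPM leaving out 1 library gave 3 to 5, the highest without WT monocyte replicate 3. In the libraries labelled Il1rl1-/- the number ran from 2 to 3 from pre-RPM to RPM, where *Fcgr1* lay at the 2-fold limit, and from 3 to 4 from monocytes to RPM. The replicate block changed no other call of the 7 genes beyond these and *Fcgr3* from WT monocytes to RPM.

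Values with no call changed sign as follows. With total counts, *Fcgr4* and *Fcer1g* from WT monocytes to pre-RPM became -0.0358 and -0.1, *Fcgr3* and *Syk* from WT pre-RPM to RPM 0.0518 and 0.127, *Syk* in the libraries labelled Il1rl1-/- 0.079, and *Fcgr1* between genotypes in pre-RPM 0.0927. The same *Syk* value was 0.0232 with at least 10 counts in every library, 0.0422 with all 24 libraries and -0.0447 to 0.0291 with 1 library left out. *Fcgr3* from pre-RPM to RPM in the libraries labelled Il1rl1-/- was -0.00044 with the replicate block and -0.0328 to 0.0701 with 1 library left out. With 1 library left out, *Fcer1g* from WT pre-RPM to RPM was -0.00902 to 0.145, *Fcgr1* between genotypes in monocytes -0.128 to 0.935 and its interaction from monocytes to RPM -0.796 to 0.236. The log2 ratio of activating to inhibitory receptors between WT monocytes and pre-RPM was 0.0451 without division by exon length and -0.149 to 0.0663 with 1 library left out, that between genotypes in RPM -0.0533 to 0.203, and that between genotypes in monocytes -0.00526 without monocyte libraries 1 and 2. The causes were not tested. Of 681 values of single genes under the other alternatives 647 kept direction and side of the threshold. Of 126 counts and ratios 115 were labelled the same. For a count this meant a number close to the main one, so that a single call could be gained or lost. For a ratio it meant the same direction and side of an adjusted p of 0.05, which no ratio passed in the main test. Ratio tests with the replicate block (sign flips) or without monocyte libraries 1 and 2 could not pass it, their smallest p being 0.125 and 0.133. At these depths *Fcgr1* rested on few reads in monocytes, which limits its comparisons there.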
